A study of Saccharomyces cerevisiae with 12 samples.

Results

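The budding yeast strain Y18daft2, labelled aft1d aft2d, was compared with its labelled wild type CM3260 after hydroxyurea and in rich medium, and the mutant-to-parent ratio in hydroxyurea was set against that in rich medium gene by gene. All 3127 genes that the probe annotation names by 1 symbol were tested, on 4 of the 6 slides of the series, which carry 8 of its 12 scans. In the rich-medium condition both strains had been grown in YPD to an optical density of 0.5 (n = 2 slides). In the hydroxyurea condition both strains had been grown the same way and then held in 200 mM hydroxyurea for 2 hours (n = 2 slides). The 2 remaining slides compared an aft1 mutant (aft1d) of BY4741 with BY4741, both in the same hydroxyurea treatment. They entered the removal of the channel trend, the channel coefficient of the fit and the estimate of spread, and their own ratios are not reported. The labels give no further allele, mating type or clone of Y18daft2 and CM3260.

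Aft1 and Aft2 are transcription factors that switch on genes of iron uptake and of iron use when cellular iron is low. Hydroxyurea inhibits ribonucleotide reductase, the enzyme that makes deoxyribonucleotides and whose small subunit holds an iron centre, so it slows DNA replication and activates the DNA replication checkpoint. Iron is also needed for heme, for iron-sulfur clusters and so for the respiratory chain of mitochondria.

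Each slide carried RNA of the mutant in one channel and RNA of the parent, from the same medium, in the other. The channels were exchanged between the slides of a condition. A value below is the log2 ratio of mutant over parent, and a difference is the ratio in hydroxyurea minus the ratio in YPD. A positive difference therefore says that the mutant stood higher against its parent in hydroxyurea than in YPD, and not which strain's RNA moved, because no slide compared the media within a strain. Slides compare bulk RNA, so fewer cells of a kind and less RNA per cell cannot be told apart. Slide values are given with the mutant in channel 1 first and in channel 2 second. Neither the base of the deposited logarithms nor their direction is stated, and both are taken as likely: the AFT1 spot of the aft1 slides set the direction.

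The deleted genes did not check the label of the double mutant. AFT1 read 0.10 and -0.23 in YPD and -0.10 and -0.25 in hydroxyurea (difference -0.11, adjusted p = 0.900). AFT2 read -0.17 and 0.05 in YPD and -0.18 and -0.15 in hydroxyurea (difference -0.10, adjusted p = 0.892). Neither spot stood well below the parent in either medium, so "the mutant" below means the strain labelled Y18daft2.

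After removal of a channel trend, the mutant-to-parent ratios of the slides correlated across genes at 0.59 in YPD and at 0.29 in hydroxyurea. Before that removal the columns were dominated by the trend, and in channel orientation the median-centred slides correlated at 0.50 in YPD and 0.78 in hydroxyurea, although their mutant channels were opposite. The SD over genes of the ratio was 0.212 in YPD and 0.151 in hydroxyurea, the SD of the difference was 0.260, and its median SE was 0.164. Nothing in the labels says that the slides of a condition came from separate cultures, so p-values measure the spread between slides, which may be technical. If the slides of a condition carried the same extracts, each condition has 1 sample and these tests describe the hybridisations.

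In all, 23 of the 3127 genes had a difference between the media at an adjusted p under 0.05 (limma on all 6 slides, Benjamini-Hochberg), 13 of them higher in hydroxyurea (0.416% of genes tested) and 10 lower (0.32%). Of all genes tested, 46.6% had a difference above 0 and 53.4% below. An unadjusted p under 0.05 was found for 5.12% in the higher direction and for 6.52% in the lower. The counts by gene list below are to be read beside these shares. Glycine decarboxylase (GCV1), peroxisomal citrate synthase (CIT2) and the wall protein SED1 had the largest negative differences, and thioredoxin (TRX1) and cytochrome c (CYC1) the largest positive ones. At 15 of the 23 genes the difference was at least 1 in size, a 2-fold change of the ratio. That size depended on the scan, as each slide had a strong and a weak one. From weak scans alone NCA3 (-0.97), SHM2 (-0.95), RDL1 (0.98) and CYC1 (0.92) were under 1 in size. So were TRX1 (0.90), CYS4 (0.83), GSP1 (0.79) and HOM6 (0.79). GCV1, CIT2, SED1, AHA1, ENB1, RNR2 and FBA1 stayed above 1 in size. For 20 of the 23 the ratio lay farther from 0 in YPD than in hydroxyurea, which was so for 1900 of all 3127 genes. All 13 genes called higher were below the parent in YPD, and 11 of them stood above it in hydroxyurea. Of the 10 genes called lower, 8 were above the parent in YPD, and 8 stood below it in hydroxyurea. In hydroxyurea 19 of the 23 lay within 0.5 of the parent. AHA1 and ENB1 were the genes of the 23 more than 1 away from the parent in hydroxyurea.

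**Figure D1:**
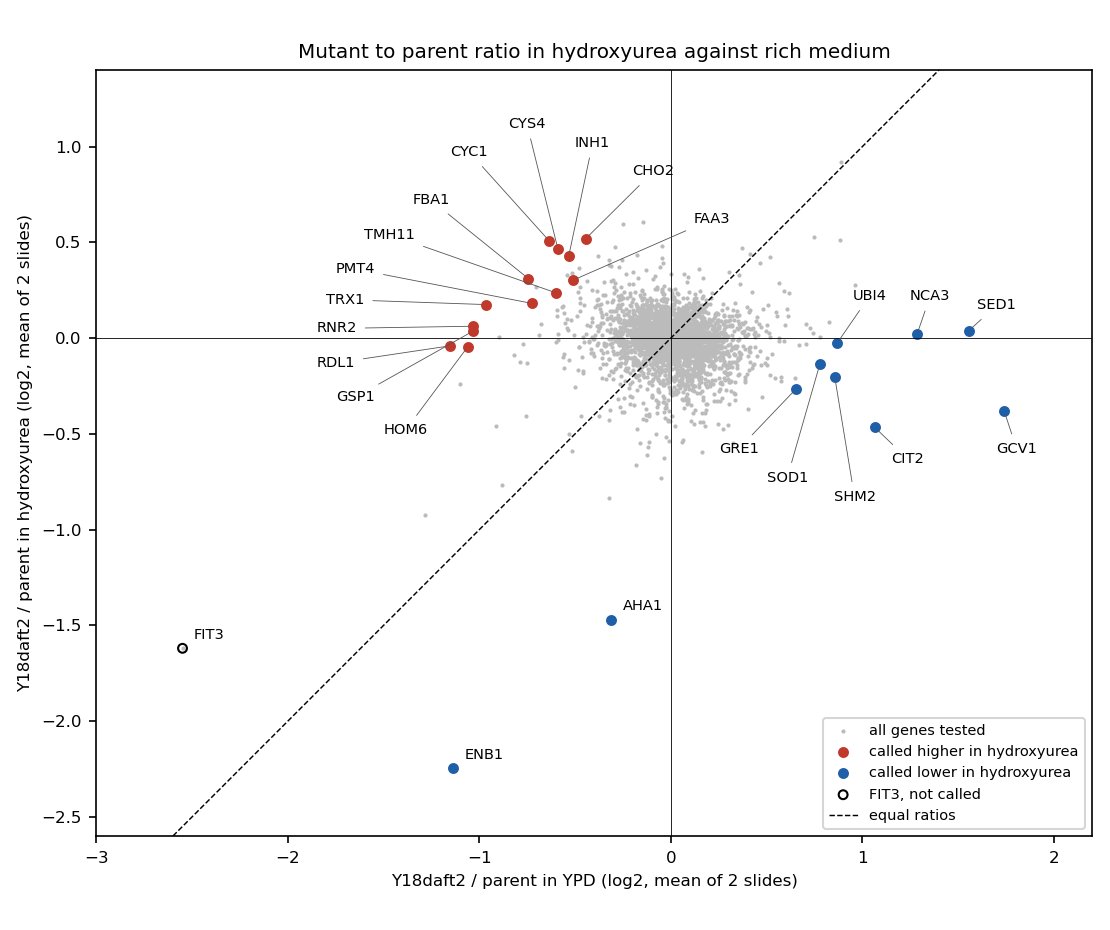
Log2 ratio of Y18daft2 over parent in hydroxyurea (y axis) against that in YPD (x axis), means of 2 slides, for 3127 genes (grey), with the 13 genes called higher in hydroxyurea in red, the 10 called lower in blue and FIT3 as an open circle. Most called genes lie along the horizontal line of no difference from the parent in hydroxyurea, and ENB1, AHA1 and FIT3 lie well below it.

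These calls rest on the removal of the channel trend. With the values as deposited, or only median-centred, limma called 0 genes at an adjusted p under 0.05, with 56 and 110 genes at an unadjusted p under 0.05. All 23 genes kept their direction under both treatments, and 21 of the 23 had an unadjusted p under 0.05 under each. The called genes sat high along the trend axis, at a median percentile of 86.4 among all genes (range 19.9 to 100). The calls were also lost when either hydroxyurea slide was left out, which leaves 1 slide of that medium. All 23 genes kept their direction then, but their selection on these same slides made that likely, so it is no separate support.

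One-carbon metabolism held the largest difference of all genes. GCV1, the subunit of the mitochondrial glycine decarboxylase complex that hands the one-carbon unit to folate, read 2.04 and 1.44 on the YPD slides and -0.73 and -0.03 on the hydroxyurea slides. Its RNA was therefore high in the mutant on both YPD slides and at or below the parent on both hydroxyurea slides, and the difference was -2.12 (SE 0.254, n = 2 slides per medium, adjusted p = 0.00693), a 4.34-fold lower ratio in hydroxyurea. SHM2, the cytosolic serine hydroxymethyltransferase that makes glycine and a one-carbon unit from serine, read 0.92 and 0.80 in YPD and -0.44 and 0.03 in hydroxyurea. The slides did not overlap, and the SHM2 difference was -1.06 (SE 0.198, adjusted p = 0.0433). Of 9 measured genes of purine and one-carbon synthesis, 7 had a difference below 0, and 2, GCV1 and SHM2, passed the test. The list's median was -0.32 against -0.02 for all genes. ADE2, which acts in purine synthesis and is a common strain marker, had a difference of -0.45 (adjusted p = 0.287), and the highest member was ADE12 at 0.19.

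Citrate synthesis outside mitochondria followed. CIT2, the peroxisomal citrate synthase and a textbook target of retrograde signalling from mitochondria, read 1.02 and 1.11 in YPD and -0.46 and -0.47 in hydroxyurea. Slides of one medium lay within 0.1 of each other, and the difference was -1.53 (SE 0.153, adjusted p = 0.00382), the smallest adjusted p of all genes. IDH2, a subunit of the mitochondrial NAD-dependent isocitrate dehydrogenase, read 0.86 and 0.79 in YPD and 0.06 and 0.11 in hydroxyurea as the mean of 2 spots, and its difference of -0.74 did not pass (adjusted p = 0.063). The partner subunit IDH1 had a difference of -0.55 (adjusted p = 0.199). CIT1, the mitochondrial citrate synthase, lay at the other end of the list with a difference of 0.48. The 10 measured genes of the citrate cycle list had a median of -0.05 (-0.23 to -0.10 with 1 slide left out, 0.06 as deposited), with 6 below 0 and 1 called.

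Cell wall genes had both large and small differences. SED1, a major glycoprotein anchored in the wall, read 1.55 and 1.56 in YPD and -0.12 and 0.19 in hydroxyurea. Its ratio was thus well above the parent in YPD and near it in hydroxyurea, with a difference of -1.52 (SE 0.174, adjusted p = 0.00693). NCA3, a member of the SUN family of wall proteins, read 1.06 and 1.51 in YPD against 0.19 and -0.15 in hydroxyurea, a difference of -1.27 (SE 0.196, adjusted p = 0.0195). Among 37 measured wall genes, 21 were below 0 (56.8%, against 53.4% of all genes) and 16 above. Limma called 2 lower and 0 higher, and 7 had an unadjusted p under 0.05 in the lower direction (18.9%, against 6.52% of all genes) and 2 in the higher (5.41%, against 5.12%). DAN1, a wall mannoprotein of anaerobic cells, had the next lowest difference at -0.77 (adjusted p = 0.271), with 1.05 and 0.50 on the YPD slides. TIR2 was the highest at 0.54. The median of the list was -0.04, and it turned to 0.02 as deposited to 0.07 with median-centring alone, and ranged from -0.15 to -0.05 with 1 slide left out.

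Iron uptake genes had differences of both signs. ENB1, the transporter of the siderophore enterobactin and a target of Aft1, read -1.08 and -1.20 in YPD and -2.25 on both hydroxyurea slides. It was low in the mutant in both media and lower still in hydroxyurea, with a difference of -1.11 (SE 0.158, adjusted p = 0.0135). FIT3, a wall mannoprotein that holds siderophores and is another Aft1 target, had the opposite sign of difference. FIT3 read -2.43 and -2.67 in YPD and -1.81 and -1.43 in hydroxyurea, and its difference of 0.93 (SE 0.183) missed the threshold (adjusted p = 0.0523). The slides of the media did not overlap for either gene. FIT2, the third siderophore gene measured, lay between -0.03 and 0.22 on the 4 slides, with a difference of 0.20 (adjusted p = 0.689).

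The other iron genes had smaller differences. Of 6 measured genes of reductive uptake, 3 were above 0 and 3 below, from FRE6 at -0.27 to FRE4 at 0.24, and limma called 0 of them, with 0 at an unadjusted p under 0.05. FRE6 and FRE4 belong to the family of ferric reductases. Of 19 measured genes of intracellular iron and iron-sulfur handling, 14 lay below 0 and 0 were called by limma. Lower at an unadjusted p under 0.05 were 2 genes (10.5%, against 6.52% of all genes). These were SMF3, which exports iron from the vacuole (difference -0.51, adjusted p = 0.397), and MRS4, which imports iron into mitochondria (difference -0.44, adjusted p = 0.410). SMF3 read -0.62 and -0.03 in YPD and -0.70 and -0.97 in hydroxyurea, so most of its difference came from the slides with the mutant in channel 2. The list's median was -0.11, and the highest members were ISA1 at 0.37 and ISD11 at 0.23, both of iron-sulfur cluster assembly.

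**Figure D2:**
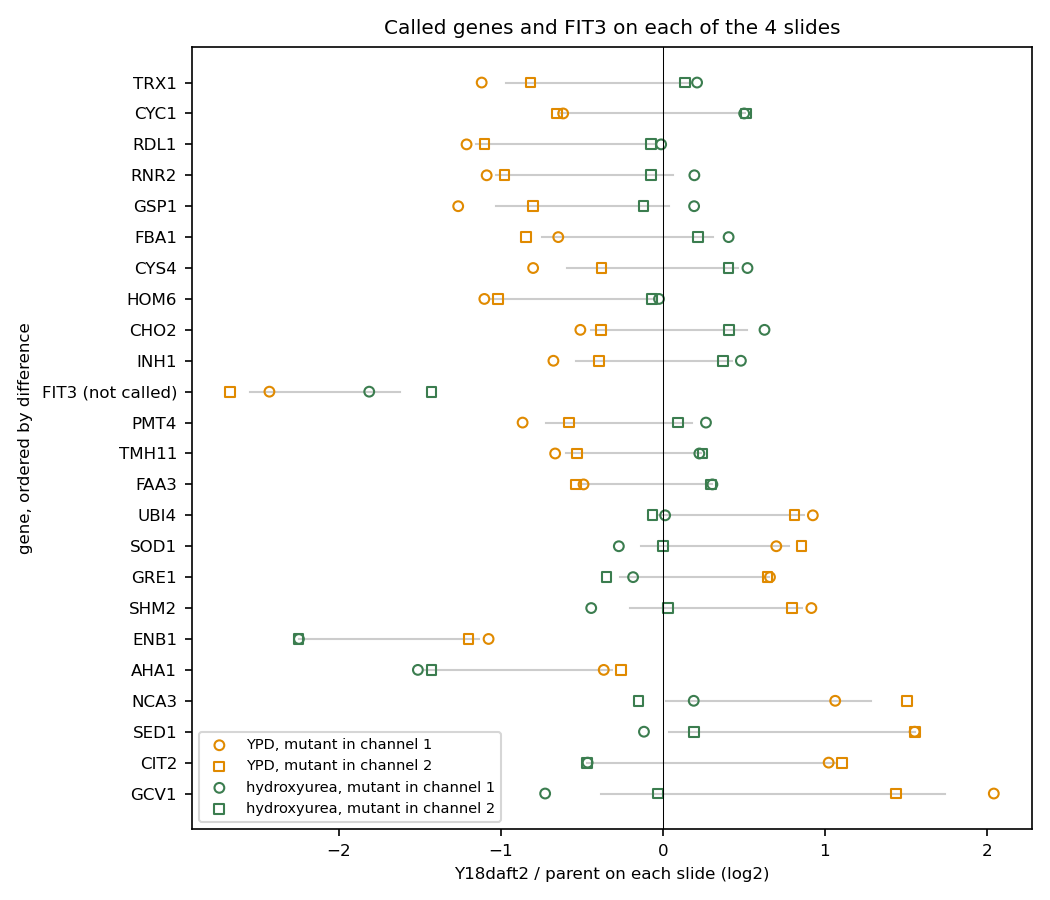
Log2 ratio of Y18daft2 over parent on each of the 4 slides for the 23 called genes and FIT3, ordered by difference, with YPD in orange and hydroxyurea in green, circles for slides with the mutant in channel 1 and squares for channel 2; grey lines join the means of the media. For every gene drawn, both hydroxyurea slides lie on one side of both YPD slides (of all genes, above in 22.7% and below in 26.2%), which selection by a small p on these slides favours. For 20 of the 23 called genes the hydroxyurea mean lies nearer to 0 than the YPD mean.

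Most measured genes of the mitochondrial respiratory chain had a difference above 0, and 1 of them passed the test. CYC1, the main form of cytochrome c, a heme protein that carries electrons to cytochrome oxidase, read -0.61 and -0.65 in YPD and 0.50 and 0.51 in hydroxyurea. It passed from below to above the parent on both pairs of slides, with a difference of 1.14 (SE 0.152, adjusted p = 0.0123), a 2.21-fold higher ratio. Of 22 measured respiratory chain genes, 18 were above 0 and 4 below, and CYC1 was called. In 11 of the 22 the unadjusted p was under 0.05 in the higher direction (50%, against 5.12% of all genes), and in 0 in the lower direction. In 15 of the 22 both hydroxyurea slides lay above both YPD slides (68.2%, against 22.7% of all genes), and in 1 both lay below (4.55%, against 26.2%). The median ratio of the list was -0.23 in YPD and 0.12 in hydroxyurea, and the median difference of 0.37 was 0.42 with the mutant in channel 1 and 0.36 with it in channel 2. That median difference was 0.04 if the columns were taken as already turned.

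The complexes of the chain held genes on both sides of 0. Members beyond the highest and the lowest of a list were picked here after their values had been seen. Cytochrome c oxidase, the copper and heme enzyme that reduces oxygen, had 6 of 7 measured subunits above 0, with a median difference of 0.54 and 5 at an unadjusted p under 0.05 in the higher direction (5.12% of all genes). COX12 led these subunits, with -0.28 and -0.23 in YPD and 0.45 and 0.36 in hydroxyurea, a difference of 0.66 (adjusted p = 0.103), while COX6 was at -0.07. The cytochrome bc1 complex had 5 of 6 measured genes above 0, with a median of 0.30, from COR1 at -0.30 to QCR8 at 0.61; RIP1, its iron-sulfur protein, had 0.58. Succinate dehydrogenase was split. SDH3, a membrane subunit, read -0.79 and -0.78 in YPD and -0.19 and -0.06 in hydroxyurea, a difference of 0.66 (adjusted p = 0.103), and SDH4, the other membrane subunit, had 0.47. SDH2, the iron-sulfur subunit, had a difference of -0.28 and SDH1, the flavoprotein, -0.05. The 3 NADH dehydrogenases, which take the place of complex I in this yeast, ranged from 0.01 (NDI1, the matrix enzyme) to 0.57 (NDE1, an external enzyme).

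ATP synthase and heme synthesis genes lay on the same side. INH1, the peptide that inhibits hydrolysis of ATP by the ATP synthase, read -0.68 and -0.39 in YPD and 0.48 and 0.37 in hydroxyurea. The slides did not overlap, and the INH1 difference was 0.96 (SE 0.169, adjusted p = 0.0403). Of 11 measured ATP synthase genes 9 were above 0 and 5 had an unadjusted p under 0.05 in the higher direction (45.5%, against 5.12% of all genes), with a median of 0.43. That median was uneven between slides: it was 0.28 with the mutant in channel 1 and 0.04 with it in channel 2, and it was 0.06 without the YPD slide that had the mutant in channel 1, 0.28 without the other YPD slide and 0.25 without the hydroxyurea slide that had the mutant in channel 1. ATP15, the epsilon subunit, followed INH1 with 0.52 (adjusted p = 0.227), and ATP5 was lowest at -0.43, a value set by 1 pair of slides (-0.90 with the mutant in channel 1, 0.04 in channel 2). All 5 measured heme synthesis genes were above 0, from HEM4 at 0.22 to HEM3 at 0.44, with both hydroxyurea slides above both YPD slides in all 5 (against 22.7% of all genes). Limma called 0 of them, and 3 had an unadjusted p under 0.05 in the higher direction (60%, against 5.12%); the median was 0.41, and 0.27 without the YPD slide that had the mutant in channel 1. HEM13, the oxygen-dependent coproporphyrinogen oxidase, read -0.09 and 0.01 in YPD and 0.45 and 0.34 in hydroxyurea. HEM15, ferrochelatase, which inserts iron into heme, read -0.53 and -0.32 in YPD and 0.12 and -0.15 in hydroxyurea (difference 0.41, adjusted p = 0.383). TMH11 was also called, with -0.66 and -0.53 in YPD, 0.23 and 0.25 in hydroxyurea and a difference of 0.83 (SE 0.156, adjusted p = 0.0433). Mitochondrial ribosomal proteins, 51 measured, had a median of 0.07, with 32 above 0, 19 below and 0 called by limma (1 at an unadjusted p under 0.05 in each direction).

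Genes of redox and stress defence had differences of both signs. TRX1, a cytosolic thioredoxin that donates electrons to ribonucleotide reductase and to peroxiredoxins, read -1.12 and -0.82 in YPD and 0.21 and 0.14 in hydroxyurea. It was low in the mutant in YPD and slightly above the parent in hydroxyurea, with a difference of 1.14 (SE 0.171, adjusted p = 0.0173). SOD1, the copper-zinc superoxide dismutase, went the other way. SOD1 read 0.70 and 0.86 in YPD and -0.27 and -0.00 in hydroxyurea (difference -0.91, SE 0.173, adjusted p = 0.0441), and its spot lay at the top of the trend axis, at percentile 100. Without trend removal the SOD1 difference was -0.18 as deposited and -0.13 with median-centring alone, so most of its size came with that step. CCS1, the copper chaperone of SOD1, had a difference of -0.54 (adjusted p = 0.227). AHP1, a thioredoxin peroxidase, had 0.86, just outside the threshold (adjusted p = 0.0540), with 2 of its strong-scan values missing on these slides. Of 18 measured genes of peroxide and superoxide defence, 8 were above 0 and 10 below (55.6%, against 53.4% of all genes), with 1 called in each direction. UBI4, the polyubiquitin gene, read 0.93 and 0.81 in YPD and 0.01 and -0.06 in hydroxyurea (difference -0.89, SE 0.163, adjusted p = 0.0433), and the UBI4 difference was -0.59 as deposited. GRE1, a hydrophilin gene induced by several stresses, read 0.66 and 0.65 in YPD and -0.18 and -0.35 in hydroxyurea (difference -0.92, SE 0.163, adjusted p = 0.0403).

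AHA1, which activates the ATPase of the chaperone Hsp90, was below the parent in both media and farther below in hydroxyurea, as was ENB1. AHA1 read -0.36 and -0.26 in YPD and -1.51 and -1.43 in hydroxyurea, a difference of -1.16 (SE 0.158, adjusted p = 0.0123). Its ratio was close to the parent in YPD and 2.23-fold lower than that in hydroxyurea. HSP82, which encodes Hsp90 itself, had a difference of -0.07, and the cochaperones STI1 and SBA1 had -0.18 and -0.23; these were named after their values had been seen. Of 30 measured chaperone and heat shock genes, 22 were below 0 (73.3%, against 53.4% of all genes). AHA1 was called, and 4 had an unadjusted p under 0.05 in the lower direction (13.3%, against 6.52% of all genes). All 6 measured subunits of the cytosolic chaperonin, which folds actin and tubulin, lay below 0, from CCT2 at -0.41 to CCT8 at -0.13, with 0 called by limma and 2 at an unadjusted p under 0.05. HSP26, a small heat shock protein, had -0.60 (adjusted p = 0.230) and SIS1, an Hsp40 chaperone, 0.47 (adjusted p = 0.292). The median of the whole list was -0.15, and it turned to 0.05 with median-centring alone.

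Ribonucleotide reductase, the target of hydroxyurea, was represented by both genes of its small subunit. RNR2 read -1.09 and -0.98 in YPD and 0.20 and -0.07 in hydroxyurea. The mutant thus had less RNR2 RNA than the parent in YPD and about as much in hydroxyurea, with a difference of 1.09 (SE 0.171, adjusted p = 0.0195). RNR4, whose product pairs with Rnr2, read -0.34 and -0.22 in YPD and 0.17 and 0.15 in hydroxyurea, and its difference of 0.44 (SE 0.153), 0.87 as deposited, did not pass (adjusted p = 0.289). DUN1, the checkpoint kinase that acts on this enzyme's regulation, had 0.43 with overlapping slides (adjusted p = 0.547). WTM1, which holds the small subunit in the nucleus, had -0.48 (adjusted p = 0.322). RNR1 and RNR3 were not analysed here.

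Replication and checkpoint genes showed small differences. Of 35 measured DNA replication genes, 22 were above 0 and 13 below, the median was 0.04, and limma called 0, with 1 at an unadjusted p under 0.05. That gene was RFA3, the smallest subunit of the single-strand binding protein RPA, with -0.60 and -0.61 in YPD, 0.03 and -0.08 in hydroxyurea and a difference of 0.58 (adjusted p = 0.154). CDC9, DNA ligase, was lowest at -0.30. Of 23 measured genes of damage checkpoint and repair, 15 were below 0 (65.2%, against 53.4% of all genes). They ran from NTG2 at -0.46 to TOF1 at 0.32, and limma called 0, with 3 at an unadjusted p under 0.05. The checkpoint kinases MEC1 and RAD53, named after their values had been seen, had -0.08 and -0.02. Among 16 cyclins and cell cycle regulators the lowest was SWE1, the kinase that restrains entry into mitosis, at -0.53 (adjusted p = 0.326). The highest was the mitotic cyclin CLB1 at 0.40, the median was 0.03, and limma called 0. With an unadjusted p under 0.05, 1 was higher (6.25%, against 5.12% of all genes) and 2 lower (12.5%, against 6.52%).

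Several enzymes of amino acid and lipid synthesis were among the genes called higher, some of them from the same print blocks of the slide, as given below. HOM6, homoserine dehydrogenase, a step shared by threonine and methionine synthesis, read -1.10 and -1.02 in YPD and -0.02 and -0.07 in hydroxyurea (difference 1.02, SE 0.153, adjusted p = 0.0173). CYS4, cystathionine beta-synthase, an enzyme of cysteine synthesis, read -0.80 and -0.38 in YPD and 0.52 and 0.41 in hydroxyurea (difference 1.05, SE 0.190, adjusted p = 0.0425). RDL1, a thiosulfate sulfurtransferase, read -1.21 and -1.10 in YPD and -0.01 and -0.07 in hydroxyurea (difference 1.12, SE 0.154, adjusted p = 0.0123). For each of these, both YPD slides were below the parent, while hydroxyurea slides were near the parent or, for CYS4, above it. HOM6 was the highest of 5 measured genes of lysine and homoserine synthesis, of which 2 were above 0 and 3 below. Their median was -0.00, and 0.33 as deposited. Genes of sulfur amino acid synthesis, the list of CYS4, also had differences of both signs. Of 18 measured, 8 were above 0 and 10 below, with a median of -0.03, and MET22 had 0.73 (adjusted p = 0.175) and STR2 -0.37.

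CHO2, which starts the methylation of phosphatidylethanolamine to phosphatidylcholine, read -0.51 and -0.38 in YPD and 0.63 and 0.41 in hydroxyurea (difference 0.96, SE 0.163, adjusted p = 0.0344). FAA3, a fatty acyl-CoA synthetase, read -0.49 and -0.54 in YPD and 0.31 and 0.30 in hydroxyurea (difference 0.81, SE 0.152, adjusted p = 0.0433). Both crossed from below to above the parent, and the other genes of their list had smaller differences of both signs. Of 14 measured genes 9 were above 0 and 5 below, the median was 0.04, and OLE1, the iron-dependent fatty acid desaturase, named after its value had been seen, had 0.03. Ergosterol synthesis had 12 of 14 measured genes above 0 and 0 called by limma. Its median was 0.14 (0.07 to 0.27 with 1 slide left out, 0.36 as deposited). This list had 3 genes higher at an unadjusted p under 0.05 (21.4%, against 5.12% of all genes). Its highest members were ERG28, a scaffold of the demethylation complex, at 0.85 (adjusted p = 0.0512) and CYB5, cytochrome b5, at 0.74 (adjusted p = 0.0844). ERG1, squalene epoxidase, was lowest at -0.29.

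Glycolysis, nuclear transport and protein mannosylation each held 1 called gene. FBA1, the aldolase of glycolysis, read -0.65 and -0.84 in YPD and 0.41 and 0.22 in hydroxyurea (difference 1.06, SE 0.186, adjusted p = 0.0403). Among 20 measured genes of glycolysis and fermentation, 13 were above 0 and 7 below, with a median of 0.20 that was -0.01 without the hydroxyurea slide that had the mutant in channel 1. PDC5, a pyruvate decarboxylase, was lowest at -0.43 (adjusted p = 0.292). GSP1, the Ran GTPase of nuclear transport, read -1.26 and -0.80 in YPD and 0.19 and -0.12 in hydroxyurea (difference 1.07, SE 0.197, adjusted p = 0.0433). PMT4, a protein O-mannosyltransferase, read -0.87 and -0.58 in YPD and 0.27 and 0.10 in hydroxyurea (difference 0.90, SE 0.170, adjusted p = 0.0433). In all 3 both YPD slides were below the parent by more than 0.5. Several genes called higher lay close together on the slide. CHO2, CYS4 and FAA3 share a print block, as do PMT4, GSP1 and HOM6, and as do FBA1 and TRX1. With print blocks centred, CYS4 fell to 0.82, FAA3 to 0.59 and FBA1 to 0.83, and these were not called. UBI4, from the genes called lower, moved to -0.60 and was not called either. HOM6 fell to 0.81 and CHO2 to 0.73, and both stayed called. How far position on the slide bears on these differences was not tested.

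Ribosomal protein genes and the genes that assemble ribosomes had medians of opposite sign. Of 49 measured cytosolic ribosomal protein genes, 37 were above 0, and both hydroxyurea slides lay above both YPD slides in 31 (63.3%, against 22.7% of all genes) and below in 7 (14.3%, against 26.2%). Limma called 0, and 12 had an unadjusted p under 0.05, all in the higher direction (24.5%, against 5.12%). RPS12 was highest, with -0.45 and -0.63 in YPD, 0.56 and 0.10 in hydroxyurea and a difference of 0.87 (adjusted p = 0.154), and RPS14B was lowest at -0.39. The median ratio of the list was -0.13 in YPD and 0.05 in hydroxyurea, and the median difference of 0.21 was 0.62 in the values as deposited and -0.05 if the columns were taken as already turned. It was 0.11 without the YPD slide that had the mutant in channel 2. These genes lay at the top of the trend axis, at a median percentile of 98.0. Many of these genes have a near-identical copy that a spot may also detect, as for RPL33A and RPL33B, which had -0.32 and 0.58.

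Of 50 measured ribosome biogenesis genes, 39 were below 0, and both hydroxyurea slides lay below both YPD slides in 21 (42%, against 26.2% of all genes) and above in 4 (8%, against 22.7%). The median was -0.14, it was -0.28 with the mutant in channel 1 and -0.00 with it in channel 2, and it ranged from -0.25 to -0.03 with 1 slide left out. Limma called 0, with 7 at an unadjusted p under 0.05. Of these, 6 were lower (12%, against 6.52% of all genes) and 1 higher (2%, against 5.12%). DBP2, an RNA helicase, was lowest, with 0.66 and 0.49 in YPD, -0.44 and -0.01 in hydroxyurea and a difference of -0.80 (adjusted p = 0.103). NOP7 was highest at 0.48 (adjusted p = 0.354). The 20 measured subunits of RNA polymerases I and III had a median of -0.11 (-0.21 to -0.00 with 1 slide left out), with 13 below 0. They ran from RPA12 at -0.47 to RPC34 at 0.66, and limma called 0. With an unadjusted p under 0.05, 2 were higher (10%, against 5.12% of all genes) and 2 lower (10%, against 6.52%).

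**Figure D3:**
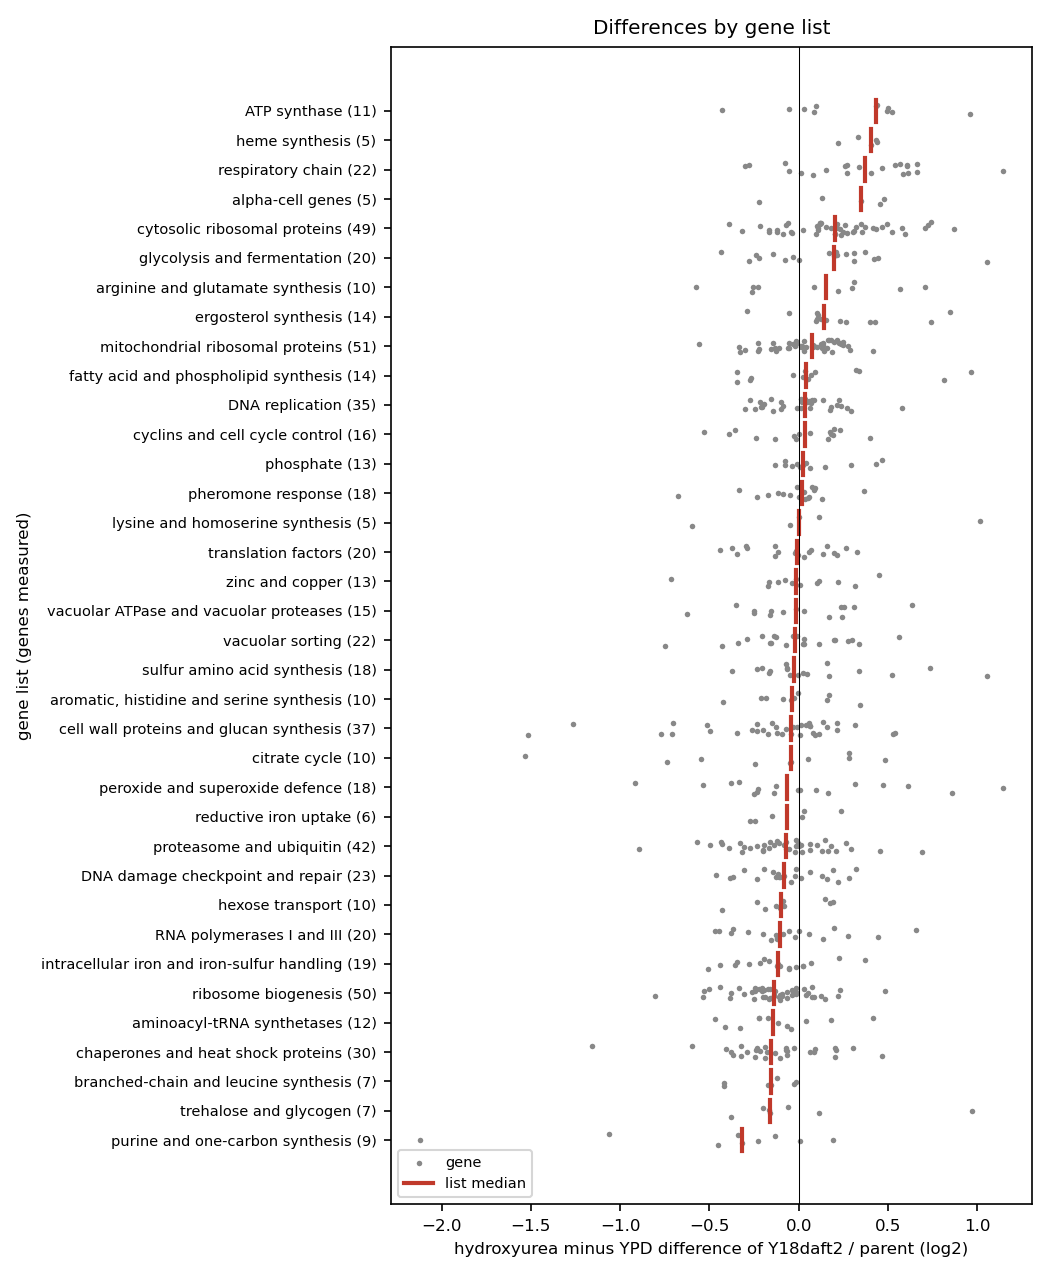
Difference between the media (log2) for each measured gene (grey points, spread vertically for legibility) of the gene lists with 5 or more measured genes, ordered by list median (red bars), with the number of genes measured in brackets. ATP synthase, heme synthesis and the respiratory chain have medians of 0.43, 0.41 and 0.37, and purine and one-carbon synthesis the lowest at -0.32.

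Genes of protein turnover had differences of both signs, with more below 0. Of 42 measured proteasome and ubiquitin genes, 27 were below 0 (64.3%, against 53.4% of all genes) and 15 above. UBI4 was called, and the median was -0.07, which turned to 0.02 as deposited. In 6 the unadjusted p was under 0.05 in the lower direction (14.3%, against 6.52% of all genes) and in 2 in the higher (4.76%, against 5.12%), and both hydroxyurea slides lay below both YPD slides in 19 (45.2%, against 26.2%) and above in 8 (19%, against 22.7%). The core particle ranged from SCL1 at -0.50 to PRE8 at 0.69, and the regulatory particle from RPT6 at -0.43 to RPT2 at 0.26. POC4, a chaperone of proteasome assembly outside that list, had -0.74 (adjusted p = 0.0611). MSN4, a transcription factor of the general stress response, had 0.81 and was the gene that missed the threshold by least (adjusted p = 0.0507), with -0.38 on both YPD slides and 0.37 and 0.50 in hydroxyurea.

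Markers of mating type were compared because the labels do not give it. Of 5 measured alpha-cell genes, 4 had a difference above 0, from the pheromone gene MF(ALPHA)1 at -0.23 to AFB1 at 0.48, with a median of 0.35 and 0 called by limma (1 at an unadjusted p under 0.05). Single slides decided that median, which was 0.03 without the hydroxyurea slide that had the mutant in channel 1, 0.67 without the other and 0.16 without the YPD slide that had the mutant in channel 2. SAG1, the alpha agglutinin, read -0.62 and -0.89 in YPD and -0.17 and -0.65 in hydroxyurea. The a-factor genes MFA1 and MFA2 had 0.07 and 0.08. Ratios do not give a level, so the mating type is not read from them. Of the 3 strain marker genes measured, LYS2 had -0.60, ADE2 -0.45 and MET17 -0.07, all below 0, which became 0.09 for their median if the columns were taken as already turned. How far these genes' values bear on the other results was not tested.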

How the data were processed

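Spotted 2-colour slides of budding yeast RNA were used as deposited: 6912 spots and 12 columns, 2 scans (strong and weak, from the French titles) of each of 6 slides. The authors' deposited values are log ratios, read here as log2 of channel 1 over channel 2; base, direction, dyes, background subtraction and normalisation are not given in the sources used here. This work starts from the ratios and has no intensities, so how far spots stood above background is unknown, and the number of slides limits precision. Column medians on the 4 slides were -0.53 to -0.06, so the deposited log2 ratios were not centred on 0.

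Exact zeros of strong scans (246 of 27648 values on the 4 slides) were set to missing. Columns were median-centred, and a loess curve (span 0.3, 4 robust iterations) of each column on the mean channel-oriented ratio of all slides was subtracted; a ratio is thus relative to genes at a like position on that axis. This treatment follows an earlier analysis and was kept with results known. Scans were averaged per slide, ratios turned to mutant over wild type, and spots of a gene averaged (197 genes had 2 spots, with a median absolute difference of 0.159 between them). The platform annotation gave 1 symbol to 3344 probes, several to 387 and none to 3181 spots.

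Limma 3.58.1 (R 4.3.3) fitted 1 coefficient per condition with the sign of the mutant's channel and 1 per gene for the channel, over all 6 slides (2 residual df, 8.32 prior df). The channel coefficient pairs slides of like orientation. Hydroxyurea minus YPD was tested with Benjamini-Hochberg over 3127 genes at 0.05. An exact permutation test of 2 slides against 2 cannot go below p = 0.333 and was not used. Self-tests on simulated data were run. The members, gene lists and subgroups were chosen with earlier results of these data known, so no set test was made. Named genes are those past the threshold, and the 12 highest and 12 lowest by moderated t among genes whose slides did not overlap. The ends of each list were also named, as were AFT1, AFT2, FIT3, ENB1 and the RNR genes. Other genes were named after their values had been seen, and some of them, such as HEM15 and MSN4, are not marked in the text. The alternatives were other normalisations, trend axes, scans, zeros, models, directions, gene filters and each slide left out. Promoter sequences were not used here.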

Additional observations from a re-analysis of the deposited data

Results flagged for a closer look

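The test of the difference between the media is itself a test of whether the mutant-to-parent effect differs between rich medium and hydroxyurea, so each of the 23 genes past its threshold is listed here. The genes with a lower ratio in hydroxyurea were GCV1 at -2.12, CIT2 at -1.53, SED1 at -1.52, NCA3 at -1.27, AHA1 at -1.16, ENB1 at -1.11, SHM2 at -1.06, GRE1 at -0.92, SOD1 at -0.91 and UBI4 at -0.89. Those with a higher ratio were TRX1 at 1.14, CYC1 at 1.14, RDL1 at 1.12, RNR2 at 1.09, GSP1 at 1.07, FBA1 at 1.06, CYS4 at 1.05, HOM6 at 1.02, CHO2 at 0.96, INH1 at 0.96, PMT4 at 0.90, TMH11 at 0.83 and FAA3 at 0.81. All values are log2 differences of 2 slides against 2, each gene had 1 spot, and 0 of the 23 had a missing strong-scan value on these slides. On the aft1 slides SED1, RNR2, GSP1, FBA1 and SOD1 lacked a strong-scan value. Every one of the 23 had the same sign on both pairs of slides of like channel, as did 1812 of all 3127 genes. Selection by a small p on these slides favours that, so it is no separate support.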

How the results depend on the processing

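The 23 calls became 0 with values as deposited, 0 with columns only median-centred, 0 with strong scans only (262 of 2921 genes at an unadjusted p under 0.05, lowest adjusted p 0.0682) and 0 with columns taken as already turned (48 genes). They became 45 with print blocks centred (19 of the 23 kept), 12 with the trend axis from weak scans (12 kept), 83 with weak scans only (22 kept), 66 without the channel coefficient (22 kept), 7 with only the 4 slides fitted (7 kept) and 72 with 12 columns and the slide as a random block (14 kept). Leaving out 1 slide gave 0 to 83 calls: 0 without either hydroxyurea slide, 25 without the YPD slide with the mutant in channel 1 (13 kept) and 83 without the other (21 kept); the lone slide was assumed to vary like the others. Zeros kept gave 26 (22 kept, with SOD1 at -0.73 not called). Genes with both scans on every slide gave 21 (18 of the 23 measured, 18 kept), and genes measured on the 4 slides the same 23. All of the 23 that were measured kept their direction except with columns taken as already turned, where 7 reversed: CIT2 0.0424, NCA3 0.392, AHA1 0.0112, CYC1 -0.0246, FBA1 -0.0035, GRE1 0.0742 and FAA3 -0.0192. With a slide left out, the selection of the 23 on these slides made a kept direction likely. SOD1 shrank to -0.18 as deposited and FAA3 to 0.50 in weak scans. Of 2 settings chosen after seeing the data, testing all 6912 spots one by one called 50, and keeping 3024 genes with no missing strong-scan value called 23. The causes were not tested beyond what the settings themselves change. The medians of the respiratory chain, heme synthesis, ATP synthase, ergosterol, ribosome biogenesis and one-carbon lists kept their sign in all 18 alternatives. So did those of the phosphate, RNA polymerase, intracellular iron and alpha-cell lists. All alternatives reuse these slides, and some leave the difference itself unchanged, so a kept sign is no separate support. The sizes of the medians moved. With columns taken as already turned, the median was 0.04 for the respiratory chain, 0.11 for heme synthesis and -0.16 for purine and one-carbon synthesis. With median-centring alone, the ergosterol median was 0.41. Leaving out 1 slide gave medians of 0.06 to 0.44 for ATP synthase and 0.03 to 0.67 for alpha-cell genes. The channel coefficient pairs slides by channel, and the labels give no replicate numbers for another pairing. The median of all genes moved from -0.02 to 0.05 at most over the scalings, and 2 slides per medium limit every value.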

Other observations

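When all 6912 spots were tested one by one, 50 passed an adjusted p under 0.05 (limma, Benjamini-Hochberg). Of these 31 carry 1 gene symbol and 19 do not, so some spots with a difference between the media stay unnamed here. Among the 31 were FIT3 (adjusted p = 0.0366) and ERG28, AHP1 and MSN4 (each 0.0414), which the test over genes did not call. VMA4, SRL1, YPL216W and PMP2 were also called only here. This setting was chosen after the data had been seen.

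Some gene groups not described above had medians below that of all genes (-0.02), and limma called 0 of their genes. The 4 measured aryl-alcohol dehydrogenases had a median of -0.35, from AAD10 at -0.45 to AAD4 at 0.17. Both hydroxyurea slides lay below both YPD slides in 3 (75%, against 26.2% of all genes). The median was -0.15 without the hydroxyurea slide that had the mutant in channel 2 and 0.05 if the columns were taken as already turned. All 7 measured genes of branched-chain and leucine synthesis were below 0, from ILV3 at -0.42 to BAT1 at -0.02, with a median of -0.16 that was 0.05 with median-centring alone. Of 12 measured aminoacyl-tRNA synthetases 9 were below 0, from FRS1 at -0.47 to CDC60 at 0.42, with a median of -0.14 that was 0.04 as deposited. The 7 measured trehalose and glycogen genes had a median of -0.16 that was 0.06 without either of 2 slides.

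Vacuolar sorting, 22 genes measured, had a median of -0.02 and ran from VPS24 at -0.75 (adjusted p = 0.103), a subunit of the ESCRT-III complex, to PEP3 at 0.56. Zinc and copper genes, 13 measured, had a median of -0.01 and ran from IZH3 at -0.71 to ZRC1, a vacuolar zinc transporter, at 0.45. Phosphate genes, 13 measured, had a median of 0.03 and ran from PHO80 at -0.13 to VTC4, a polyphosphate polymerase, at 0.46. Arginine and glutamate synthesis, 10 measured, had a median of 0.15 that was 0.31 without the YPD slide that had the mutant in channel 2, 0.00 without the other, and -0.00 without the hydroxyurea slide that had the mutant in channel 2. In it GLT1, the iron-sulfur enzyme glutamate synthase, had 0.71 (adjusted p = 0.103) with -0.66 and -0.72 in YPD and 0.09 and -0.05 in hydroxyurea, GDH1, which makes glutamate with NADPH, had 0.57 (adjusted p = 0.289), and GDH2, which degrades glutamate, had -0.58 (adjusted p = 0.230). Limma called 0 genes of these 4 lists.

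PGM2, phosphoglucomutase, had a difference of 0.97 that came from 1 pair of slides, at 1.94 with the mutant in channel 1 and 0.00 with it in channel 2 (adjusted p = 0.292).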
